A study of Mus musculus with 6 samples.

Results

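Heat shock proteins and their co-chaperones were taken from the deposited gene count table by symbol. The rule takes the Hspa (Hsp70), Hspb (small heat shock), Hspd, Hspe and Hsph genes, the Hsp90 genes, the J-domain genes named Dnaja, Dnajb and Dnajc, and Bag1 to Bag6. It found 73 of the 22032 genes in the table. Of these, 71 passed the filter on low counts and were tested, while Dnajb3 (at most 5 counts in a library) and Hspb9 (at most 2) were not. The libraries are bulk mRNA of temporomandibular joint, the jaw joint, from mice of 10 weeks that the series calls littermates. There were 3 libraries of the Igf2bp2 knockout (KO) and 3 of the wild type (WT). Neither group carries a further allele or treatment in the labels, and the sources used here do not give the strain, the sex or the deleted part of the gene. The joint was sampled as a whole tissue, and whether each library came from its own animal is not stated, so a p-value here reflects the spread among these particular samples alone, and that spread may be technical.

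Chaperones keep other proteins folded. Hsp70 proteins bind exposed stretches of unfolded chains in a cycle driven by ATP, which J-domain proteins start and nucleotide exchange factors (the Hsph and Bag proteins among them) end, and Hsp90 proteins finish the folding of many kinases and receptors. Small heat shock proteins hold unfolding proteins without using ATP, and several of them are abundant in muscle, where they sit at the contractile filaments. The transcription factor HSF1 switches on the inducible members under heat or protein damage, while chaperones of the endoplasmic reticulum (ER) answer to the unfolded protein response and those of mitochondria serve imported proteins.

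Total counts were 28551236 to 35094127 per library, of which mitochondrially encoded genes took 85.3% to 90.8%. The 73 members held 22586 to 41874 counts in a library, or 0.846% to 0.911% of the counts on nuclear genes. Sampling noise of read pairs was larger than the difference between KO 1 and KO 3 (median variance ratio 0.941) and between WT 2 and WT 3 (0.965), so each pair was summed and counted as 1 sample. The samples were then KO 1+3 and KO 2 against WT 1 and WT 2+3, n = 2 per group. Leaving out KO 2 or WT 1 leaves 1 sample in that group, which is then assumed to vary like the other group's samples. Values of single libraries are always listed in the order 1, 2, 3. Levels are counts scaled per 1000000 (CPM) with scaling factors by trimmed mean of M-values (TMM), means ± SD run over the 2 samples, and changes are log2 fold changes of KO minus WT with a false discovery rate (FDR) from edgeR. Because mitochondrial transcripts took 85.3% to 86.0% of the counts in KO and 90.6% to 90.8% in WT, TMM sets the bulk of nuclear genes equal between groups (the median change over all tested genes was -0.01), and every change below is relative to it. The labelled target Igf2bp2 was counted 13, 14 and 10 times in the KO libraries and 38, 20 and 24 times in the WT libraries, a change of -1.80 (SE 0.39, FDR 0.00589; 0.00036 to 0.0422 over 13 alternatives). Besides joint tissue the libraries held other tissue. Fast muscle markers summed to 8439 to 9753 CPM in KO and 5489 to 7573 in WT, chondrocyte markers to 9.98 to 12.2 and 12.8 to 15.3, and salivary gland markers to 516 to 552 and 41.0 to 44.3.

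Among the 71 tested members 7 were lower and 4 higher in KO at an FDR of 0.05, or 15.5% of them. Over all 14632 tested genes 17.6% were called, 8.48% lower and 9.15% higher, so the members' share lies near the background. Their median change was 0.01, with 36 members above 0 and 35 below. The 6 libraries did not overlap between groups for 27 members, 16 with KO above WT and 11 with KO below. Over all tested genes 38.5% did not overlap, 19.3% with KO above and 19.2% with KO below. Since KO 1 with KO 3 and WT 2 with WT 3 count as 1 sample each, such a separation is one of 2 samples from 2. By role, the genes filed as stress-inducible held 5 of the 7 lower calls, and the others were Hspa12a and Bag1. The roles were set with earlier results of these data known. The higher calls were the muscle small heat shock genes Hspb7 and Hspb6, the ER co-chaperone Dnajc3 and the clathrin co-chaperone Dnajc6. Without KO 2 the members called fell to 3 lower and 1 higher (Hspa1a, Hspa1b, Hspa12a and Hspb7), as the count over all genes fell from 2580 to 1149. With the 6 libraries taken as separate samples 10 members were lower and 9 higher, and 25.0% of all genes were called.

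**Figure D1:**
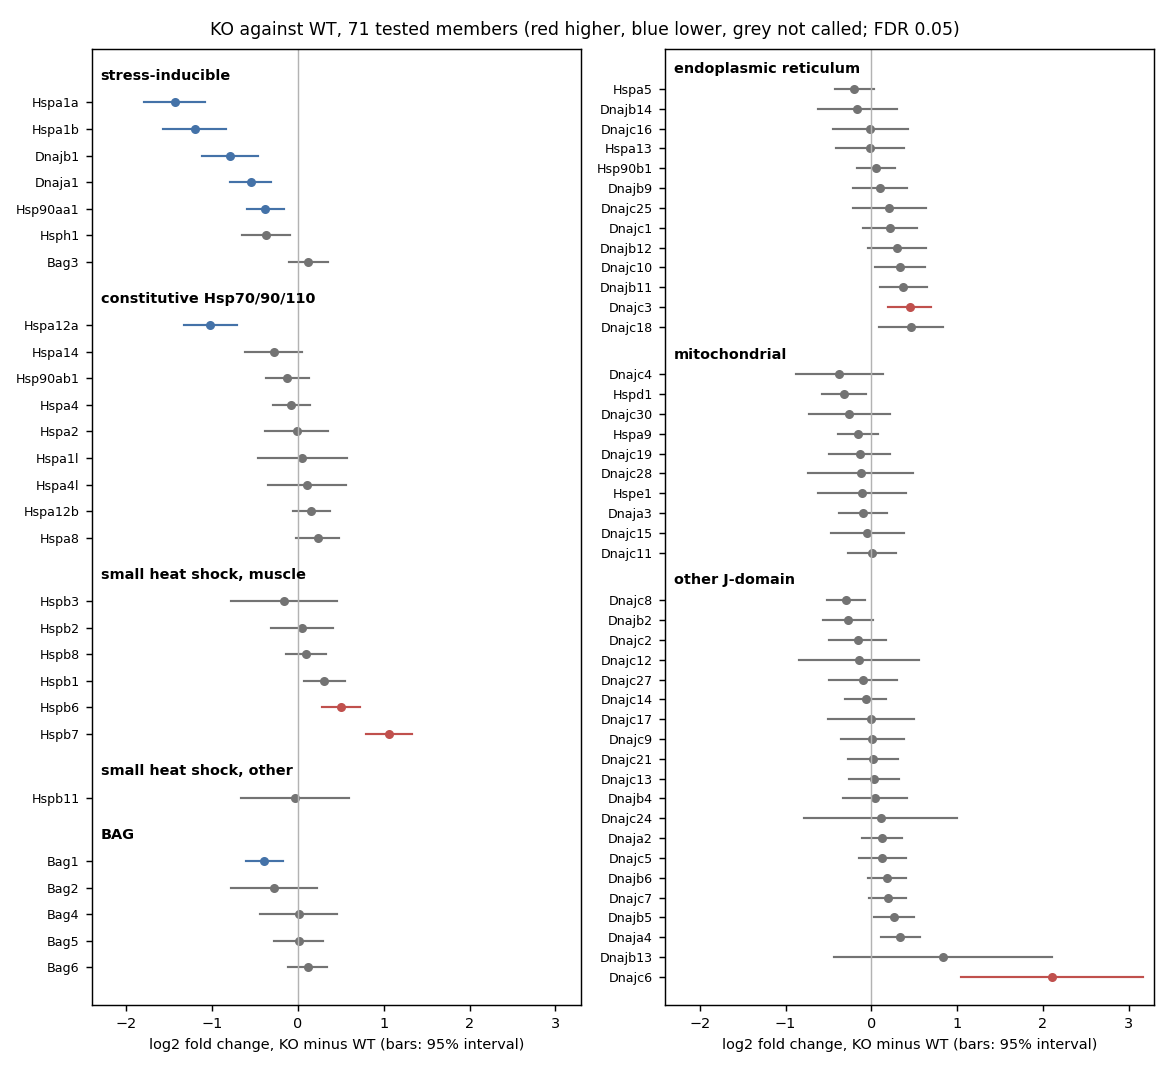
Log2 fold change of KO minus WT (x axis) with its 95% interval for each of the 71 tested members, ordered within their roles; red points were higher and blue points lower at an FDR of 0.05, and grey points were not called. Blue points gather among the stress-inducible genes (Hspa1a at -1.44 to Hsp90aa1 at -0.38), while no mitochondrial member was called.

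The stress-inducible members were lower in KO as far as they passed the test. This role was set with earlier results of these data known, so its count of calls is descriptive. The role is not a full list of inducible members, and its values hold for its 7 genes alone. Hspb1 is also inducible but is filed with the small heat shock genes. It was not called, and its KO libraries lay above all WT libraries (0.31, FDR 0.103). Of 7 genes, 5 fell, none rose, and the median change was -0.55, where 8.48% of all tested genes fell. Without KO 2 the count was 2, and by DESeq2's Wald test 4. Their summed level was 77.2 to 83.9 CPM over the KO libraries and 106 to 112 CPM over the WT libraries. The KO libraries lay below all WT libraries for 6 of the 7 (19.2% of all tested genes did), Bag3 being the exception.

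Hspa1a and Hspa1b, neighbouring genes for the inducible Hsp70, had the largest decreases of all members. Hspa1a was counted 60, 75 and 71 times in the KO libraries (1.53, 1.79 and 1.83 CPM) and 147, 92 and 120 times in the WT libraries (5.03, 4.06 and 4.66 CPM). It was 2.71-fold lower, from 4.70 ± 0.459 CPM in WT to 1.73 ± 0.0767 in KO (change -1.44, SE 0.18, FDR 9.63e-05). The lowest WT library was above all KO libraries. The KO libraries lay close together, but KO 1 and KO 3 count as 1 sample. Hspa1b, at 97, 88 and 76 counts in KO and 167, 96 and 115 in WT, was 2.31-fold lower (-1.21, SE 0.19, FDR 0.000482). The genes are close copies: 58.8% of the 50-base words of the Hspa1a transcript also occur in Hspa1b, and 62.3% of those of Hspa1b in Hspa1a. How the authors' counting shared reads between them is not known, so their split is uncertain. Counted together they reached 4.00, 3.88 and 3.79 CPM in KO and 10.7, 8.30 and 9.13 CPM in WT, which was 2.49-fold lower (-1.32, SE 0.15, FDR 3.65e-05). The sum was chosen as a test after the data were seen. Set against Hspa8, the constitutive Hsp70, the pair gave 21.9, 20.1 and 19.5 counts per 1000 counts of Hspa8 in KO, against 63.7, 53.7 and 57.3 in WT. That ratio does not depend on library scaling, and the groups did not overlap in it. Hspa8 itself leaned higher in KO without being called (0.23, FDR 0.249), which widens the difference in the ratio.

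The start regions of this pair are nearly the same as well. Over the 250 bases before the start, 247 were identical between the windows of Hspa1a and Hspa1b. Heat shock factors bind inverted repeats of a short unit, here searched on both strands as GAANNTTC and as TTCNNGAA, each its own reverse complement. The windows of Hspa1a, Hspa1b and Dnaja1 each hold 1 GAANNTTC, and those of the small heat shock genes Hspb1 and Hspb6 hold 2 and 1. They are shown, with the match in capitals, because these 5 genes share the motif while 3 of them were lower, 1 was higher and 1 was not called. The stretches are the 150 bases before the start from RefSeq, build GRCm38.p6, which is not the authors' build.
Hspa1a, chr17:34972157-34972306, minus strand: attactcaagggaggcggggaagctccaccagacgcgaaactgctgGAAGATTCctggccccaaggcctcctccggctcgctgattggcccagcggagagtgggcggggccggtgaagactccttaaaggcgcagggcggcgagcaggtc
Hspa1b, chr17:34959239-34959388, minus strand: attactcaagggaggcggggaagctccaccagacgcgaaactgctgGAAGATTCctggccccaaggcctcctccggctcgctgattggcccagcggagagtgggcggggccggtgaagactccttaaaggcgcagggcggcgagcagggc
Dnaja1, chr4:40722318-40722467, plus strand: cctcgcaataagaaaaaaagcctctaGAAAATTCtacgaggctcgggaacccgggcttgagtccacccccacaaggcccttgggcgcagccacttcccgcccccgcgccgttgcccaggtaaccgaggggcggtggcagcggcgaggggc
Hspb1, chr5:135887769-135887918, plus strand: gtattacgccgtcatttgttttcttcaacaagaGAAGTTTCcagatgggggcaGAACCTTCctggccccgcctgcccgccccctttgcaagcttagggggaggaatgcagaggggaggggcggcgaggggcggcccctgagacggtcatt
Hspb6, chr7:30553151-30553300, plus strand: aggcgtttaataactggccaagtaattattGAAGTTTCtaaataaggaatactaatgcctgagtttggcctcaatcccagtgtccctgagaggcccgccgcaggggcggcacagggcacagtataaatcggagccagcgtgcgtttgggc

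RefSeq windows from 250 bases before to 50 after a start were at hand for 60 of the 73 members, some with more than 1 start. Of these, 14 held GAANNTTC (23.3%, against 9.04% of all 27025 genes with a window) and 6 held TTCNNGAA (10.0% against 9.60%), 4 of them in common. With either form there were 16 members, 26.7% against 17.0%. Their changes ran from -1.44 to 0.50, 8 below and 8 above 0, with 3 called lower and 1 higher (8.48% and 9.15% of all tested genes were). The motif was thus found in members of either direction. A match here is a string of letters and not a measured binding site. The windows of Hspd1 and Hspe1 cover mostly the same bases, so their shared match is counted for both genes.

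Dnajb1, Dnaja1 and Hsp90aa1 were the other stress-inducible members that fell. Dnajb1, the inducible J-domain protein that recruits Hsp70 to aggregates, had 5.83, 3.93 and 5.38 CPM in KO and 8.55, 7.46 and 8.86 in WT. It was 1.73-fold lower (-0.79, SE 0.17, FDR 0.00542), KO 2 being the lowest library. Dnaja1, a farnesylated J-domain protein of the cytosol, had 24.6, 22.9 and 25.4 CPM in KO and 32.1, 38.7 and 37.5 in WT, 1.47-fold lower (-0.55, SE 0.12, FDR 0.00631). Hsp90aa1, the inducible cytosolic Hsp90, had 22.8, 22.1 and 21.3 CPM in KO and 27.3, 32.1 and 28.4 in WT, 1.30-fold lower (-0.38, SE 0.11, FDR 0.0308). For these 3 genes all KO libraries were below all WT libraries. Their calls were lost without KO 2, a fit that left 1 KO sample. When each library was left out, the change was -0.861 to -0.575 for Dnajb1, -0.654 to -0.488 for Dnaja1 and -0.435 to -0.339 for Hsp90aa1. Hsp90aa1 also missed the threshold without KO 3 (0.0564) or WT 2 (0.0544) and in DESeq2's Wald test (0.0991).

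Hsph1 and Bag3 did not pass. Hsph1 (Hsp110), which exchanges the nucleotide of Hsp70, had 7.28, 6.29 and 8.63 CPM in KO and 9.0, 9.89 and 9.24 in WT, a difference of -0.37 (95% interval -0.65 to -0.09, FDR 0.0924). The libraries did not overlap, and the gene passed without KO 3 (FDR 0.0426) and with 6 separate libraries (0.0406). Bag3, which links Hsp70 to small heat shock proteins and to autophagy in muscle, had 16.9, 18.1 and 19.4 CPM in KO and 18.0, 15.5 and 15.5 in WT. Its difference was 0.12 (95% interval -0.11 to 0.35, FDR 0.551), so a fall of the size of Hspa1a's lies outside the interval.

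**Figure D2:**
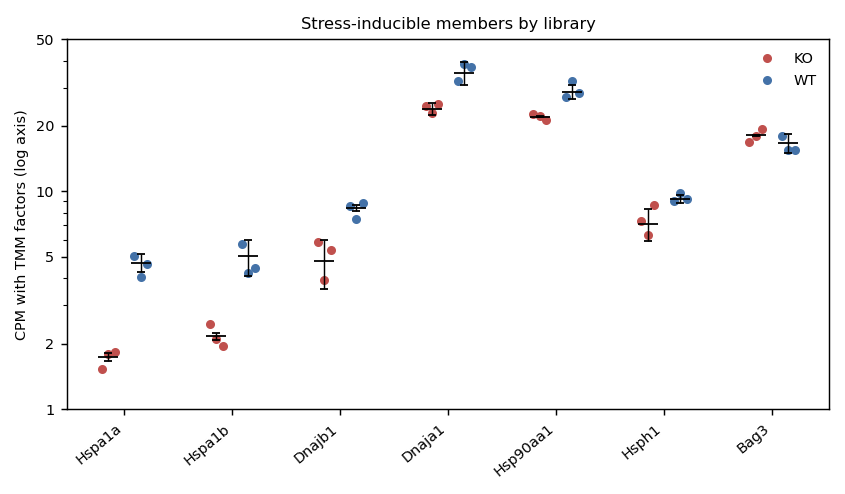
CPM with TMM factors (log axis) of the 7 stress-inducible members in each library, KO in red and WT in blue, with libraries 1 to 3 from left to right; black marks give mean ± SD, n = 2 samples. The red points lie under the blue ones for Hspa1a to Hsph1 and overlap them for Bag3.

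Of the heat shock machinery outside the members few genes were called. Hsf1 itself, the master factor, had 5.27, 5.36 and 4.74 CPM in KO and 6.16, 5.38 and 5.40 in WT (difference -0.15, 95% interval -0.45 to 0.14, FDR 0.549), and none of the 4 tested heat shock factors and binding proteins was called by edgeR, by DESeq2's Wald test or at an unadjusted p under 0.05. Of 18 co-chaperones of Hsp70 and Hsp90, 1 rose and 1 fell (9.15% and 8.48% of all tested genes did), with a median of 0.02. St13, which stabilises Hsp70 bound to ADP, was 1.27-fold lower (FDR 0.0449), a call kept in 5 of 14 alternatives. Fkbp5, the immunophilin that Hsp90 carries in steroid receptor complexes and a known glucocorticoid target, had 60.1, 58.7 and 56.1 CPM in KO and 9.41, 8.08 and 7.77 in WT, 6.78-fold higher (2.76, SE 0.13, FDR 1.12e-08). The chaperonin TRiC and prefoldin, which fold actin and tubulin, had no called gene among 14 by edgeR, by DESeq2's Wald test or at an unadjusted p under 0.05, with a median of -0.09.

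Immediate early genes, another group of rapidly induced genes, were read in the same libraries. Of 19 tested immediate early genes 8 fell and 2 rose, where 8.48% of all tested genes fell and 9.15% rose. Their median was -0.55, with a summed level of 102 to 109 CPM in KO and 128 to 141 in WT. The calls of smallest p were Egr1 (3.81-fold lower, FDR 1.47e-06), Fosb (8.81-fold, FDR 4.8e-06), Nr4a1 (2.16-fold, FDR 3.91e-05) and Nr4a2 (2.80-fold, FDR 8.79e-05), transcription factors of the early response. Markers of some cell types moved as well: all 8 Schwann cell markers fell (478 to 496 CPM summed in KO and 1402 to 1452 in WT), as did 6 of 8 macrophage markers (37.0 to 38.5 and 55.3 to 69.3), with no marker of either list at 0. The part of these shifts in the fall of the inducible chaperones was not tested. In bulk tissue fewer cells of a type and less RNA per cell cannot be told apart.

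Constitutive members of the Hsp70, Hsp90 and Hsp110 families were called in 1 of 9 cases (17.6% of all tested genes were), with a median of -0.02. Hsp90ab1, the housekeeping Hsp90, and Hspa8, the housekeeping Hsp70, were the most abundant members per transcript length, at 76.6 and 51.6 CPM per kb in WT. Hsp90ab1 had 174, 181 and 172 CPM in KO and 202, 189 and 180 in WT (difference -0.12, 95% interval -0.37 to 0.13, FDR 0.572). Hspa8 had 183, 193 and 194 CPM in KO and 169, 155 and 159 in WT (0.23, -0.02 to 0.47, FDR 0.249). Its libraries did not overlap, and it was called higher with 6 separate libraries (FDR 0.0272). The inducible and the constitutive copy of each family thus differed in what was called: Hspa1a and Hsp90aa1 were lower, Hspa8 and Hsp90ab1 were not. The difference between copies was tested by no model here.

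Hspa12a, a distant relative of Hsp70 known from brain and fat, was the constitutive gene called. It had 6.90, 5.43 and 7.60 CPM in KO and 14.4, 12.4 and 11.3 in WT, 2.03-fold lower (-1.02, SE 0.16, FDR 0.00074), with no overlap. The call held in all 14 alternatives (FDR at most 0.0201). Adipocyte markers were lower in the same libraries for 5 of 7 tested genes (8.48% of all tested genes were), with a median of -1.16. Of the 8 listed, 2 (Lep and Retn) were at 0 in some library. Their sums were 296 to 369 CPM in KO and 296 to 440 in WT. Most of these sums was Fabp4, which was not called (284 to 358 CPM in KO and 268 to 412 in WT). Neuron markers were higher for all 10 tested (values beside Dnajc6), where 9.15% of all tested genes were. The part of either was not tested. Its paralog Hspa12b, which is made by endothelium, had 26.7, 26.7 and 24.7 CPM in KO and 23.4, 23.1 and 24.0 in WT and was not called (0.15, FDR 0.378). Hspa4, Hspa14, Hspa2, Hspa4l and Hspa1l had differences of -0.28 to 0.11, all with overlapping libraries. Hspa1l shares 9.57% of its 50-base words with Hspa1a, so its 27 to 60 counts per library are uncertain in the same way.

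Among the small heat shock genes of muscle, Hspb7 and Hspb6 were higher in KO. Of 6 tested, 2 rose and none fell (9.15% of all genes rose), with a median of 0.20, and their summed level was 109 to 116 CPM in KO and 80.0 to 85.1 in WT. Hspb7, which binds filamin C at the sarcomere, reached 16.0, 16.4 and 17.3 CPM in KO and 9.10, 6.40 and 7.34 CPM in WT. It was 2.09-fold higher, with 16.5 ± 0.197 CPM in KO and 8.0 ± 1.56 in WT (1.06, SE 0.14, FDR 0.000121). Even the highest WT library, WT 1, was well under the lowest KO library. Hspb6 (Hsp20), a partner of 14-3-3 proteins in muscle, had 47.9, 47.2 and 47.7 CPM in KO and 34.2, 33.6 and 32.2 in WT, 1.42-fold higher (0.50, SE 0.11, FDR 0.0065). Its libraries lay close together within each group, but KO 1 with KO 3 and WT 2 with WT 3 count as 1 sample each. The call was lost without KO 2, while the change stayed at 0.488 to 0.544 when each library was left out.

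The other muscle small heat shock genes did not pass. Hspb1 (Hsp25), which caps actin filaments and is also inducible, had 33.1, 28.9 and 33.6 CPM in KO and 23.7, 27.0 and 26.3 in WT (0.31, 95% interval 0.07 to 0.54, FDR 0.103). Its libraries did not overlap, and it was called higher with 6 separate libraries, without a block (FDR 0.0116) and with one (0.0455). Hspb8, the partner of Bag3, had a difference of 0.09 (FDR 0.665), Hspb2 one of 0.04 (FDR 0.913) and Hspb3 one of -0.17 (FDR 0.784), with overlapping libraries in each. Of the related muscle genes that were listed, alpha-B crystallin (Cryab), the most studied small heat shock protein of muscle, had 54.6 ± 0.923 CPM in KO and 56.5 ± 0.521 in WT (-0.05, 95% interval -0.27 to 0.17, FDR 0.814). Flnc, the filamin bound by Hspb7, was 2.11-fold higher (FDR 2.14e-05), Des, the intermediate filament of muscle, 1.63-fold higher (FDR 0.000847) and Smyd1, a methyltransferase of the sarcomere, 1.46-fold higher (FDR 0.00882). The calls of Des and Smyd1 were lost without KO 2 (FDR 0.0601 and 0.0631).

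Part of the fast muscle markers were higher in the KO libraries, where 9.15% of all tested genes were called higher. Of 14 fast muscle markers 7 rose and none fell (2 rose without KO 2), with a median of 0.53 and none at 0. Of 8 slow muscle markers none was called by edgeR or by DESeq2's Wald test, and 2 had an unadjusted p under 0.05 (median -0.15). Counted per 1000 counts of the summed fast muscle list, Hspb6 had 4.97, 5.59 and 4.89 in KO and 6.23, 4.51 and 4.25 in WT, so the groups overlapped. Hspb7 had 1.67, 1.94 and 1.78 in KO and 1.66, 0.859 and 0.969 in WT, where WT 1 came level with KO 1. By the same measure Hspb1, Hspb2, Hspb3 and Cryab were lower in every KO library than in any WT library. The summed fast muscle list was itself higher in KO (8439 to 9753 CPM, against 5489 to 7573 in WT). A gene level in CPM therefore falls in this ratio, and the share of all genes that would separate in it was not computed. Hspb1, whose CPM were higher in every KO library, had 3.42 to 3.45 in KO and 3.47 to 4.32 in WT. Hspb2 had 0.425 to 0.451 against 0.569 to 0.622, Hspb3 0.0793 to 0.100 against 0.118 to 0.181, and Cryab 5.55 to 6.39 against 6.90 to 10.2. Members of this group did not keep 1 common ratio to fast muscle transcripts. The part of the muscle shift in the rise of Hspb7 and Hspb6 was not tested further. WT 1 had the lowest summed fast muscle level of the 6 libraries (5489 CPM) and the highest ratio of Hspb1, Hspb3, Hspb6 and Hspb8 to it.

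**Figure D3:**
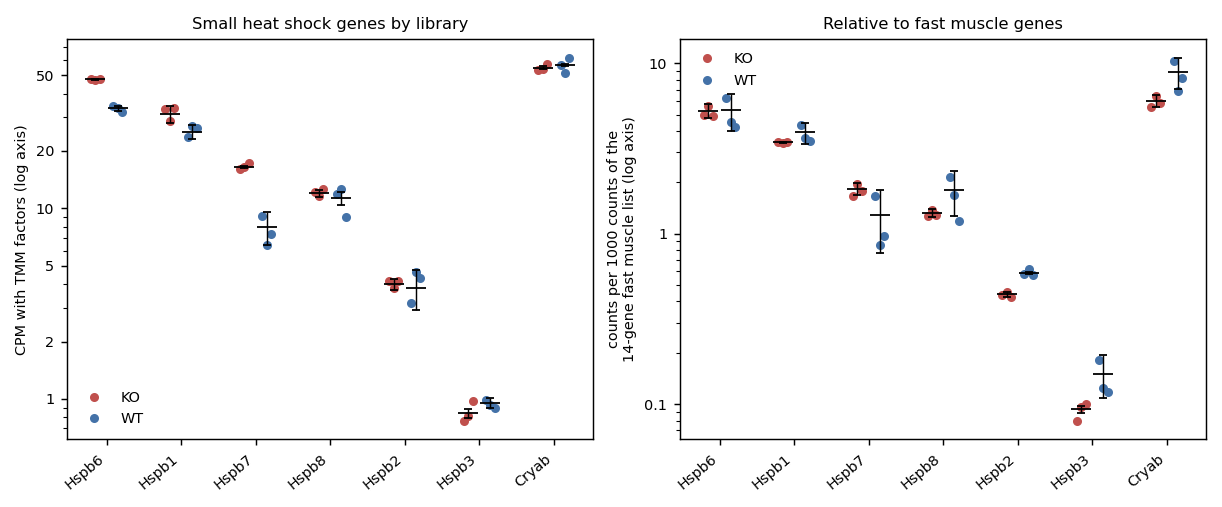
Left, CPM with TMM factors (log axis) of the 6 muscle small heat shock members and Cryab in each library; right, the same genes as counts per 1000 counts of the 14 fast muscle markers (log axis). KO is red and WT blue, libraries 1 to 3 run from left to right, and black marks are the mean ± SD over 2 samples; Hspb6 separates on the left and overlaps on the right.

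Chaperones of the endoplasmic reticulum were called in 1 of 13 cases (17.6% of all tested genes were), with a median of 0.21. Of the 13, 6 had all KO libraries above all WT libraries (19.3% of all genes did). Dnajc3 (p58IPK), which delivers unfolded proteins to BiP and inhibits the kinase PERK, had 8.74, 9.74 and 9.35 CPM in KO and 6.71, 7.50 and 6.60 in WT, 1.36-fold higher (0.45, SE 0.13, FDR 0.0284). That call was lost without KO 2 (FDR 0.276), WT 1 (0.0515) or WT 3 (0.0611) and in DESeq2's Wald test (0.138). Hspa5 (BiP), the Hsp70 of the ER, leaned the other way with 20.6, 24.2 and 20.9 CPM in KO and 25.8, 26.4 and 25.1 in WT (-0.20, 95% interval -0.43 to 0.03, FDR 0.276). Hsp90b1 (GRP94), the Hsp90 of the ER, had 33.5, 33.1 and 35.9 CPM in KO and 30.9, 33.6 and 35.0 in WT (0.06, -0.17 to 0.28, FDR 0.801). The remaining J-domain proteins of the ER, Dnajb9, Dnajb11, Dnajb12, Dnajb14, Dnajc1, Dnajc10, Dnajc16, Dnajc18 and Dnajc25, had differences of -0.16 to 0.46, and Hspa13 one of -0.01. Dnajb11, a BiP partner, came closest (0.37, FDR 0.0831) and was called with 6 separate libraries (0.0321).

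Start windows of 3 members held the ER stress response element, CCAAT and CCACG with 9 bases between them, searched on both strands: Hspa5, Hsp90b1 and Dnajc3. That is 5.00% of the 60 members with a window and 0.137% of all genes. Hsp90b1 held 2, of which 1 lies before the stretch shown and the other is on the opposite strand. The 3 genes are shown because they share the element and did not share a call. Capitals mark the match in the 150 bases before each start (RefSeq, GRCm38.p6).
Hspa5, chr2:34771940-34772089, plus strand: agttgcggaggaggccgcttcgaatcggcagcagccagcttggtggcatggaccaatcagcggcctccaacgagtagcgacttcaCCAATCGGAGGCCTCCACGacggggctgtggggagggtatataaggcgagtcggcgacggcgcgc
Dnajc3, chr14:118937782-118937931, plus strand: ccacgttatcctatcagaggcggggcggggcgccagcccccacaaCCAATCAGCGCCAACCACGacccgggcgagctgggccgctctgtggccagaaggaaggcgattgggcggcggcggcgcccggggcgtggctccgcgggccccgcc
Hsp90b1, chr10:86705445-86705594, minus strand: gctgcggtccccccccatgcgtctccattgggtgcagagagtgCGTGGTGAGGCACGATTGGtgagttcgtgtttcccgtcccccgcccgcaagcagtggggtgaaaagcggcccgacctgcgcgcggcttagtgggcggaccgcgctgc

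Other ER folding and unfolded protein response genes were mostly level. Of 18 tested, 1 rose and none fell (9.15% and 8.48% of all tested genes did), with a median of -0.05. Herpud1, a component of ER-associated degradation, measured 25.2, 25.5 and 25.7 CPM across KO and 14.4, 14.4 and 16.1 CPM across WT, which was 1.72-fold higher (FDR 0.000243). Hyou1, the nucleotide exchange factor of BiP, averaged 4.19 ± 0.172 CPM in KO and 4.31 ± 0.427 in WT (-0.04, FDR 0.900).

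None of the 10 mitochondrial chaperones was called by edgeR (17.6% of all tested genes were), and their median was -0.13. At an unadjusted p under 0.05, 1 of them passed, and in DESeq2's Wald test 0 did at an FDR of 0.05. Hspa9 (mortalin), the Hsp70 that pulls proteins into the matrix, had 23.0, 19.5 and 22.7 CPM in KO and 23.6, 22.7 and 24.3 in WT (-0.15, FDR 0.417). Hspd1 (Hsp60) and Hspe1 (Hsp10) form the folding chamber of the matrix and are encoded head to head. Hspd1 had 13.4, 12.0 and 15.0 CPM in KO and 14.7, 18.8 and 17.5 in WT (-0.32, 95% interval -0.58 to -0.06, FDR 0.122) and was called lower with 6 separate libraries (FDR 0.0255) and without WT 1 (0.0315). Hspe1 had 11.8, 8.79 and 12.1 CPM in KO and 8.45, 14.7 and 13.0 in WT (-0.11, FDR 0.842). In Hspe1 the single samples KO 2 and WT 1 were the low ones of their groups, and in Hspd1 likewise. The stretch before the Hspe1 start holds overlapping GAANNTTC and TTCNNGAA units, in capitals. The Hspd1 window covers mostly the same bases on the other strand, so this is 1 stretch counted for both genes. The 3-unit form (GAA, TTC and GAA with 2 bases between units), searched on both strands, was in the windows of Hspd1, Hspe1, Hsph1 and Dnajb6, or 6.67% of members with a window, and in 0.662% of all genes. It overlaps the 2-unit forms by construction. None of the 4 genes that hold it was called.
Hspe1, chr1:55087998-55088147, plus strand: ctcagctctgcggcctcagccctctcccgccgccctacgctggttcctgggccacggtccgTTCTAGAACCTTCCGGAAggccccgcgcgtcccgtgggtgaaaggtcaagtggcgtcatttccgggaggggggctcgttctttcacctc

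J-domain proteins are the largest family here, with 39 of 40 tested. Of these 2 fell (Dnaja1 and Dnajb1) and 2 rose (Dnajc3 and Dnajc6), with a median of 0.02. Over all tested genes 8.48% fell and 9.15% rose. Dnajc6 (auxilin), which uncoats clathrin vesicles in neurons, was counted 23, 42 and 28 times in the KO libraries and 2, 11 and 2 times in the WT libraries, so WT 2 stood above the other WT libraries. Its change of 2.11 (SE 0.54, FDR 0.0154) was the largest of all members but rests on few counts. It was lost without KO 2 (FDR 0.159), WT 1 (0.0545) or WT 3 (0.107), and its change stood at 3.42 without WT 2 (FDR 0.00221). Neuron markers were higher in the same libraries for all 10 tested, with a sum of 37.1 to 44.0 CPM in KO and 5.54 to 7.99 in WT and 6 of the 11 listed (Nefm, Nefh, Th, Dbh, Chrna3 and Slc5a7) at 0 in some library. Their part in the change of Dnajc6 was not tested.

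The cytosolic members Dnajc7, Dnaja2, Dnaja4 and Dnajb6 were not called. Dnajc7, which passes clients between Hsp70 and Hsp90, had 21.3, 22.9 and 23.0 CPM in KO and 19.8, 19.9 and 19.4 in WT (0.19, FDR 0.264). Dnaja2, the constitutive relative of Dnaja1, had 21.1, 18.5 and 19.9 CPM in KO and 16.6, 19.6 and 18.6 in WT (0.13, FDR 0.535). Dnaja4 and Dnajb6, both well expressed in muscle, had differences of 0.34 (FDR 0.0647) and 0.19 (FDR 0.303), with KO libraries above WT libraries. Dnaja4 was called higher in 4 of 14 alternatives (FDR 0.00687 to 0.0362). Dnajc8, a splicing-associated member, leaned lower (-0.29, FDR 0.102) without overlap. Dnajb13, a protein of cilia, had at most 12 counts in a library (0.83, FDR 0.433).

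Of the BAG proteins, which release clients from Hsp70 by nucleotide exchange, Bag1 was lower. It had 23.4, 22.8 and 23.8 CPM in KO and 31.5, 31.4 and 27.6 in WT, 1.31-fold lower (-0.39, SE 0.11, FDR 0.0259). The libraries did not overlap. The call was lost without KO 2 (FDR 0.328), WT 1 (0.0712) or WT 2 (0.0549) and in DESeq2's Wald test (0.0797). Bag2, Bag4, Bag5 and Bag6 had differences of -0.28 to 0.11 (FDR 0.522 to 0.992). Bag6, which shields membrane proteins before insertion, was the most abundant of these 4 at 22.2 ± 0.565 CPM in KO and 20.6 ± 2.09 in WT. Hspb11, which belongs to intraflagellar transport in spite of its name, averaged 0.855 ± 0.131 CPM in KO and 0.882 ± 0.0379 in WT (-0.03, FDR 0.962).

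Ordered by level per kb of the longest transcript, the members spanned a wide range. In WT the highest were Hsp90ab1 (76.6 CPM per kb), Hspa8 (51.6), Hspb1 (27.1), Bag1 (22.6) and Hspb6 (16.9). In KO the same 5 genes led, with 70.3, 60.4, 33.5, 17.2 and 24.0, so Bag1 and Hspb6 traded places. Inducible Hsp70 sat low, with Hspa1a at 1.59 CPM per kb in WT and 0.584 in KO, rank 39 and rank 59 of 73. Hspb7 moved from rank 25 in WT to rank 17 in KO. Transcript lengths come from another annotation than the authors', so these levels are approximate.

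**Figure D4:**
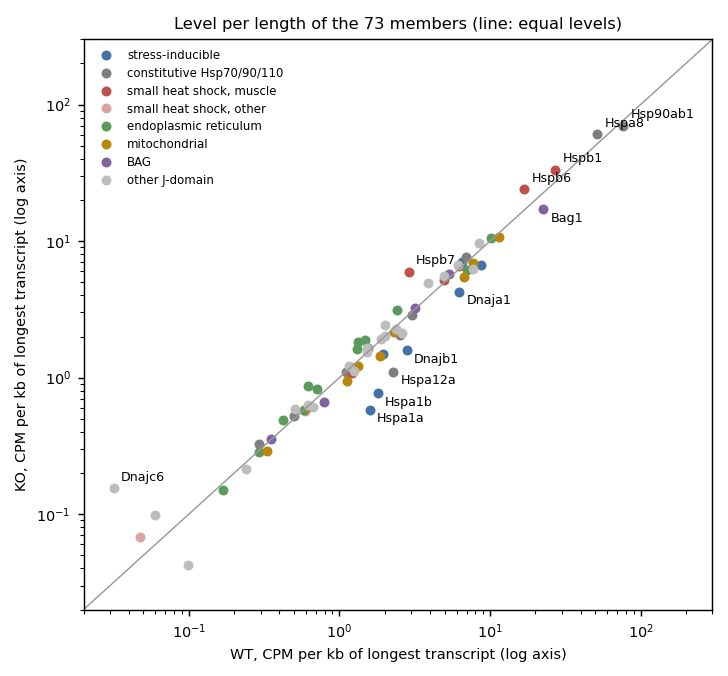
Mean CPM per kb of the longest transcript of the 73 members in WT (x axis) and KO (y axis), both on log axes and coloured by role, with a line of equal levels. Hspa1a, Hspa1b, Dnajb1, Dnaja1, Hspa12a and Bag1 lie under the line, and Hspb7, Hspb6 and Dnajc6 above it.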

How the data were processed

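The 6 libraries of temporomandibular joint RNA were compared as 2 groups of 3, taken from the sample titles. The authors deposited raw counts per gene symbol; HISAT2 2.1.0, StringTie 2.1.5 and mm39 are named per the submitters' processing notes, without their roles, while the annotation, the strand setting and the handling of multi-mapping reads were not found in the sources used here. The ratio of genes at 2 counts to genes at 1 was 4.69 to 5.06, so replicate noise was computed with 2 counts per read pair, over genes with at least 20 summed counts. Pairs of libraries with a median ratio of observed to sampling variance under 1.1 were summed. The members, gene lists, roles and this treatment of replicates were chosen with earlier results of these data known.

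Changes were tested with edgeR 4.0.16 (R 4.3.3): filterByExpr with a minimum count of 10, TMM factors, the robust quasi-likelihood F test, two-sided, Benjamini-Hochberg over all 14632 tested genes, threshold FDR 0.05. SE is the size of the change over the root of F. The fit was run on data simulated at a fixed dispersion, with changes larger than those of several called members, such as Hsp90aa1 and Dnajc3. That run does not test calls of their size. CPM use the TMM factor of the sample a library belongs to. Members named are, within each role, those called and the 4 most abundant, and all stress-inducible, muscle small heat shock and ER members; outside the members up to 4 called genes of smallest p per pathway list, with Hsf1, Cryab, Hyou1 and Igf2bp2. Dnajb3, Hspb9, Dnajb13 and the remaining constitutive, BAG and J-domain members were named beyond that rule. Transcript lengths are the longest GENCODE M21 transcript of a symbol. Alternatives were DESeq2 1.42.0 size factors and Wald test, other filters, leaving out mitochondrial or muscle marker genes, 6 separate libraries, a replicate block and leaving out each library; counts of Hspa1a and Hspa1b were summed as an alternative chosen after seeing the data. Depth was 28551236 to 35094127 counts per library. The labels name no molecular identifiers.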

Additional observations from a re-analysis of the deposited data

How the results depend on the processing

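Of the 11 member calls, all 11 remained with DESeq2 size factors, without the low-count filter, without mitochondrial or muscle marker genes and with 6 separate libraries, and 8 in DESeq2's Wald test. Taking the 6 libraries as separate samples gave 9 members higher and 10 lower. DESeq2's Wald test called 1634 genes in all instead of 2580. Leaving out each library gave 1 to 4 members higher, 3 to 7 lower and 1149 to 2434 genes in all, the lowest each time without KO 2. Where this left 1 sample in a group, it was assumed to vary like the other group's samples. Without KO 2, 4 of the 11 calls remained; the cause of these shifts was not tested. With at least 50 counts in 3 libraries Dnajc6 was not tested. Whether replicate numbers pair animals is not stated. Correlations of deviations were -0.056, -0.0844 and 0.0316 between same-numbered libraries and -0.0802 to 0.128 between the others. They cannot decide it, since KO 1 with KO 3 and WT 2 with WT 3 were nearly alike. A replicate block over 6 libraries called 6 members higher and 7 lower.

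Alternatives were recomputed gene by gene for the named genes, not for every member. Among these, the genes that reversed direction in any alternative were near 0 and not called, and the cause was not tested. With 6 separate libraries the log2 fold changes were -0.009477 for Bag4, -0.05093 for Bag5 and 0.0007857 for Dnajc16. With at least 50 counts they were -0.009524 for Bag4, -0.008349 for Bag5 and -0.005131 for Dnajc11. With the replicate block they were -0.01241 for Bag4 and -0.05534 for Bag5. Without a filter they were 0.006804 for Dnajc16 and 0.00914 for Hspa13, and without mitochondrial genes 0.0006082 for Hspa13. Leaving out each library gave -0.07812 to 0.05153 for Bag4, -0.09519 to 0.04107 for Bag5, -0.006833 to 0.2241 for Dnajb9, -0.07721 to 0.1221 for Dnajc11 and -0.1537 to 0.1032 for Dnajc16. It gave -0.004146 to 0.0917 for Hsp90b1, -0.1548 to 0.07182 for Hspa13, -0.1699 to 0.1075 for Hspb11, -0.1444 to 0.1065 for Hspb2, -0.02676 to 0.1939 for Hspb8, -0.3824 to 0.09458 for Hspe1 and -0.1174 to 0.02176 for Cryab. With 2 samples per group, a member with few counts such as Dnajc6 or Dnajb13 has a wide interval. Nuclear genes held 2625472 to 4899680 counts per library.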
